A study of Mus musculus with 56 samples.

Results

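Nuclear receptor coactivators and the acetyltransferases they recruit were followed at the transcript level in mouse liver with and without thyroid hormone. The 10 genes were Ncoa1, Ncoa2, Ncoa3, Ncoa6, Med1, Crebbp, Ep300, Kat2a, Kat2b and Carm1. They were chosen by name as established partners of nuclear receptors, with earlier results of these data known. All 10 had a value among the 23813 genes of the deposited RNA sequencing (RNA-seq) table. Each was represented by its first listed RefSeq transcript.

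The 12 libraries came from the liver of male mice, with 4 libraries from each of 3 groups, namely wild-type (WT) mice without (hypothyroid) or with T3 (hyperthyroid) and L-NCOR1ΔID mice without T3 (hypothyroid). Propylthiouracil (PTU), a blocker of thyroid hormone synthesis, was given to all groups in food poor in iodine. Hyperthyroid mice remained on PTU and were then injected with T3 (triiodothyronine), and hypothyroid mice with vehicle. L-NCOR1ΔID mice carry a liver-specific NCOR1 that lacks the domains contacting the thyroid hormone receptor (TR), and were kept on a mixed C57BL/6;129S background. For WT mice the paper names a C57BL/6J and NIH Black Swiss background, that of littermates of another line with mutant TR. Which WT mice gave the RNA was not stated, so that strain and genotype cannot be told apart. The promoter behind the liver-specific mutation was not given in the sources used here. Ages are listed per group over all experiments, where the mutant mice were younger on average than both WT groups, so that age and genotype cannot be told apart.

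TR can occupy target sites in the absence of hormone, and at other sites its binding depends on T3. Without T3 it holds the corepressors NCOR1 and SMRT, which bring the deacetylase HDAC3. With T3 the receptor changes shape and binds coactivators through short leucine-rich motifs. The p160 proteins NCOA1, NCOA2 and NCOA3 are such adaptors, CBP and p300 (from Crebbp and Ep300) acetylate histone H3 at lysines of enhancers, and MED1 links the receptor to Mediator and RNA polymerase.

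Transcript levels were given as RPKM, reads per kilobase of transcript relative to the aligned reads of the library, so they can be compared between genes. Depth was estimated from the spacing of low values at 21.2 to 42.6 M reads per library, with the hyperthyroid libraries shallowest at 21.2 to 26.0 M. At these depths the members rested on 90.5 to 743 reads per kilobase. Changes were tested with limma on log2(RPKM + 0.1) over all genes that reached 0.1 RPKM in 4 or more of the 8 libraries compared, with Benjamini-Hochberg adjustment. A gene was called at an adjusted p below 0.01.

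The hyperthyroid libraries differed from the others in composition. Over the 13941 genes tested between WT groups, the median log2 fold change was 0.23, and it was 0.01 after scaling each library by the median of its gene ratios. Each T3 change of the 10 genes in WT mice is therefore given as deposited and after this scaling. Cell markers, Thrsp, Dio1 and Ncor1 are given as deposited alone. On that scale 35.8% of all genes tested were higher and 10.8% lower in every hyperthyroid than in any hypothyroid WT library. In L-NCOR1ΔID mice 7.78% were above and 5.36% below all hypothyroid WT libraries. The summed RPKM of 5 hepatocyte markers was between 36601 and 48197 in hypothyroid WT, 18899 to 27106 in hyperthyroid WT and 30398 to 34686 in L-NCOR1ΔID mice, with no marker at 0. Most of this sum was albumin (Alb), at 31804 ± 4200, 14324 ± 2510 and 22674 ± 2152 RPKM in the same order. Of the 5 hepatocyte markers, 2 were lower and 1 higher in every hyperthyroid than in any hypothyroid WT library, and 1 was lower in every mutant library. Of 6 Kupffer cell and macrophage markers, all were higher in every hyperthyroid than in any hypothyroid WT library, and their sum was 132 to 218 against 42.2 to 59.9 RPKM. Sums in L-NCOR1ΔID mice were 47.3 to 129 RPKM for the same 6 genes, none of them apart from hypothyroid WT in all libraries. Stellate cell markers were at 45.6 to 64.1 RPKM in hypothyroid and 77.2 to 87.3 RPKM in hyperthyroid WT mice (3 of 6 above), and endothelial markers at 18.1 to 26.5 and 28.2 to 35.9 RPKM (3 of 5 above). In L-NCOR1ΔID mice these lists were at 60.8 to 106 and 24.6 to 34.2 RPKM, with 1 gene of each above all hypothyroid WT libraries. Cholangiocyte markers (11.96 to 16.1 and 10.4 to 19.2 RPKM) and lymphocyte markers (0.791 to 2.94 and 1.15 to 3.93 RPKM) overlapped between the WT groups. The mutant libraries held 11.3 to 19.3 RPKM of the former and 0.505 to 1.11 RPKM of the latter, with 1 of 5 lymphocyte markers below all hypothyroid WT libraries. Cycling cell markers were at 0.437 to 0.757 RPKM in hypothyroid WT, 0.937 to 4.78 RPKM in hyperthyroid WT (3 of 4 above) and 0.247 to 2.36 RPKM in L-NCOR1ΔID mice. The part of these cell markers in the values below was not tested, and in whole liver a change in cell numbers and a change in RNA per cell cannot be told apart.

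T3 treatment itself was visible in Thrsp, a lipogenic target of TR, and Dio1, the hepatic deiodinase. Thrsp was at 322 ± 128 RPKM in hypothyroid and 1597 ± 652 RPKM in hyperthyroid WT mice (mean ± SD, n = 4), and Dio1 at 18.5 ± 26.3 and 544 ± 74.7 RPKM. Hypothyroid WT replicate 3 had 57.7 RPKM of Dio1 and the other 3 had 0.719 to 8.98 RPKM. Ncor1 RNA was 14.7 ± 0.665 RPKM in hypothyroid WT and 13.0 ± 0.844 RPKM in L-NCOR1ΔID mice, a level per gene that cannot show the missing exons.

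At the level of chromatin, the start of every one of the 10 genes lay inside a deposited region of histone H3 acetylation. These regions were called by the authors from H3K27Ac and H3K9Ac in hypothyroid and hyperthyroid WT liver and merged, so they carry no signal and no condition. By the 5′-most coding transcript of GENCODE M1 (mm9), 10 of 10 starts were covered, against 86.3% of 11959 genes with RNA and 95.1% of the 4223 genes within the members' range of RPKM. The regions at the starts measured 2831 to 13262 bp, with a median of 4689 bp. The median was 3923 bp for genes with RNA and 4153 bp for those within the members' range of RPKM. The widest was at Ncoa3 (13262 bp), followed by Kat2b (9670 bp) and Ncoa6 (6798 bp), and the narrowest at Med1. Both wide regions ran mainly into the gene, 11508 bp past the start of Ncoa3 and 8125 bp past that of Kat2b. They and the other regions inside each gene covered 44.5% of Ncoa3 and 45.0% of Kat2b, compared to 6.82 to 24.8% of the other 8 genes. This share was not compared with that of genes outside the 10.

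**Figure D1:**
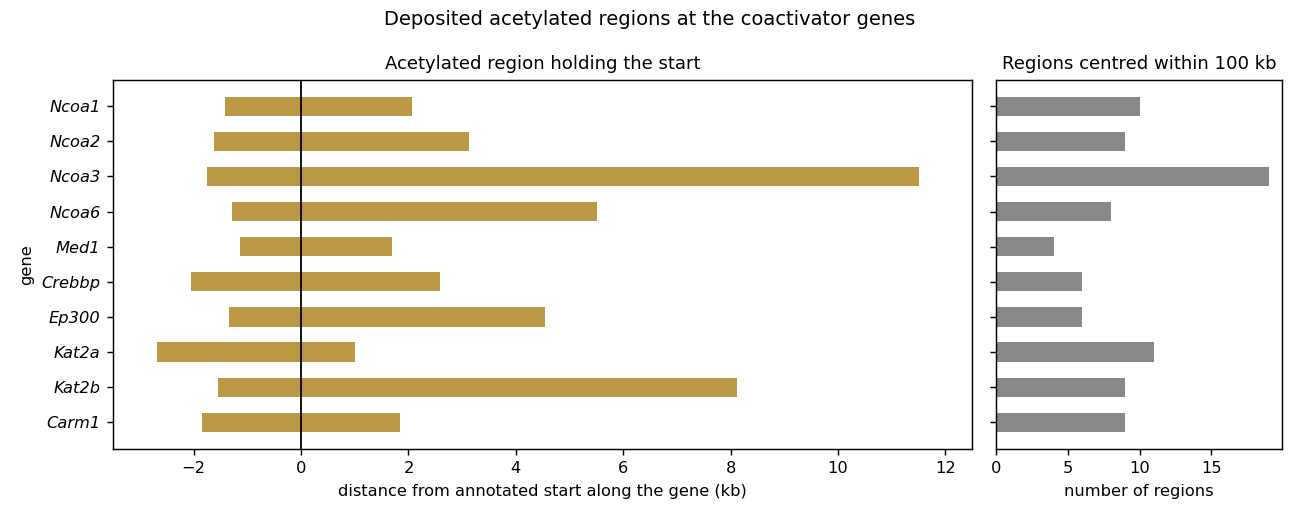
Acetylated regions at the 10 genes. Left, the extent in kb of the region that holds each annotated start (vertical line), drawn in the direction of the gene; right, the number of regions centred within 100 kb of the start. The regions at Ncoa3 and Kat2b extend 11508 and 8125 bp past the start, and Ncoa3 has 19 regions nearby against 4 for Med1.

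Within 100 kb of the start, the number of centred regions was 19 for Ncoa3, 11 for Kat2a, 10 for Ncoa1 and 4 for Med1. The median was 9 over the 10 genes, 7 over all genes with RNA and 8 over those within the members' range of RPKM. Counts within a fixed window also include regions of neighbouring genes. Ncoa1 and Ncoa2, the longest genes (236698 and 234979 bp), held 8 and 9 regions inside the gene, and Ep300 held the region at its start alone. The median was 4 regions inside the gene for the members, whose median length was 81918.5 bp. It was 1 for genes with RNA (median length 22700 bp) and 1 for those within the members' range of RPKM (24853 bp).

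The promoters of 3 members are shown because they differ in base composition and in whether the listed start lies in an acetylated region. The results below also turn on these genes. Ncoa1 and Ncoa6 were the members with the largest T3 response, and Kat2b was the most abundant. RefSeq promoter sequences (GRCm38.p6, 300 bases around the start) were listed for 7 of the 10 genes and each matched mm9 exactly at 1 place on its chromosome. Capitals mark GGGCGG (a GC box), AGGTCA (the half-site of many nuclear receptors) and CCAAT on either strand, so that TGACCT and ATTGG are the latter motifs on the reverse strand. The Ncoa1 window is at chr12:4484011-4484310 on the minus strand of mm9, the Ncoa6 window at chr2:155266470-155266769 on the minus strand and the Kat2b window at chr17:53706046-53706345 on the plus strand.
Ncoa1: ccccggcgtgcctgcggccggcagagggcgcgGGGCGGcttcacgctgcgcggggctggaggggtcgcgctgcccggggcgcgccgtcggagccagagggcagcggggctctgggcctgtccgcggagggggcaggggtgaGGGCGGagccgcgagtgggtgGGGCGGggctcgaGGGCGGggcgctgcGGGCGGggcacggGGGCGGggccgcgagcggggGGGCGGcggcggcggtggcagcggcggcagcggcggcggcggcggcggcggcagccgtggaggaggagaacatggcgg
Ncoa6: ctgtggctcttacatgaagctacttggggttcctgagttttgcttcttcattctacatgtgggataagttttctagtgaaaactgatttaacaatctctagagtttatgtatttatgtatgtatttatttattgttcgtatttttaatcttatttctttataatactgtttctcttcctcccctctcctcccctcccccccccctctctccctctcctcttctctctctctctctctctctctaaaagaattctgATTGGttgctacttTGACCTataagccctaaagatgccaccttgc
Kat2b: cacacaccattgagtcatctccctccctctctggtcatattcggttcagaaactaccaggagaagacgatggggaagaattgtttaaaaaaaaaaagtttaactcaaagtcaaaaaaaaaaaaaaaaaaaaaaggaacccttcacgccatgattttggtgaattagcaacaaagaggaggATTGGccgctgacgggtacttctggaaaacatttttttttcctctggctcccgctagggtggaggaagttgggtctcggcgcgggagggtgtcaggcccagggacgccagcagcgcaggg

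The Ncoa1 promoter was 84.7% G or C with 49 CpG and held 7 GC boxes, while the Kat2b promoter was 47.0% G or C with 11 CpG and none. The Ncoa6 window, 39.3% G or C with 1 CpG, marks a start inside the gene as GENCODE draws it. It lay outside the acetylated regions, 1417 bp from the nearest, whereas the 5′ start of Ncoa6 was covered. Among the 8 listed promoters of the 7 genes, AGGTCA occurred in that of Ncoa6 alone, 20 bases after the start, and it occurs in 16.3% of the 32851 RefSeq promoters and in 13.5% of the 13722 promoters of genes with RNA. GGGCGG was found in the promoters of Ncoa1, Crebbp (2 overlapping), Ep300 (1) and Med1 (1), and in 35.7% of all promoters and 59.0% of those of genes with RNA. CCAAT was found at Ncoa6, Med1 and Kat2b and in 37.4% of both sets of promoters. Neither the repeat of AGGTCA with 4 bases between, to which TR binds, nor TGACGTCA (a cAMP response element) nor CCGGAAG (an ETS motif) was found in these windows on either strand, and they occur in 0.0152%, 1.79% and 8.86% of all promoters and in 0%, 2.89% and 16.0% of those of genes with RNA. Kat2b has a further listed start within the gene, 785 bp from the nearest region.

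Kat2b, which encodes the acetyltransferase PCAF, was the most abundant transcript in each group at 19.0 ± 1.84 RPKM in hypothyroid WT, 20.2 ± 1.21 in hyperthyroid WT and 15.9 ± 3.25 in L-NCOR1ΔID mice. Carm1, an arginine methyltransferase acting on histone H3 and on CBP and p300, was next with 9.97 ± 0.584, 10.97 ± 0.920 and 10.6 ± 0.455 RPKM. Ncoa1 and Ncoa6 were the lowest in hypothyroid WT (3.11 ± 0.281 and 3.04 ± 0.283 RPKM) and overlapped. Among 14311 genes with RNA, the mean levels of the 10 members lay between the percentiles 48.3 (Ncoa1) and 81.8 (Kat2b), with a median gene at 4.04 RPKM.

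In hypothyroid WT mice the order was Kat2b, Carm1, Ncoa2, Kat2a, Ep300, Med1, Crebbp, Ncoa3, Ncoa1 and Ncoa6. The libraries of neighbours overlapped for Ncoa2 and Kat2a, for Ep300, Med1 and Crebbp, and for Ncoa1 and Ncoa6. In hyperthyroid WT mice Ncoa6 stood above Ncoa3 and Ncoa1, and the libraries of neighbours were apart for Kat2b and Carm1 and for Ncoa2 and Kat2a alone. The first 4 places were the same in the 3 groups, by the first listed transcripts. The most abundant Med1 transcript had means of 7.02 RPKM in hypothyroid WT, 8.37 in hyperthyroid WT and 7.18 in L-NCOR1ΔID mice. These were above the means of Kat2a (6.75, 7.83 and 6.38 RPKM), so that the place of Med1 depends on the transcript.

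**Figure D2:**
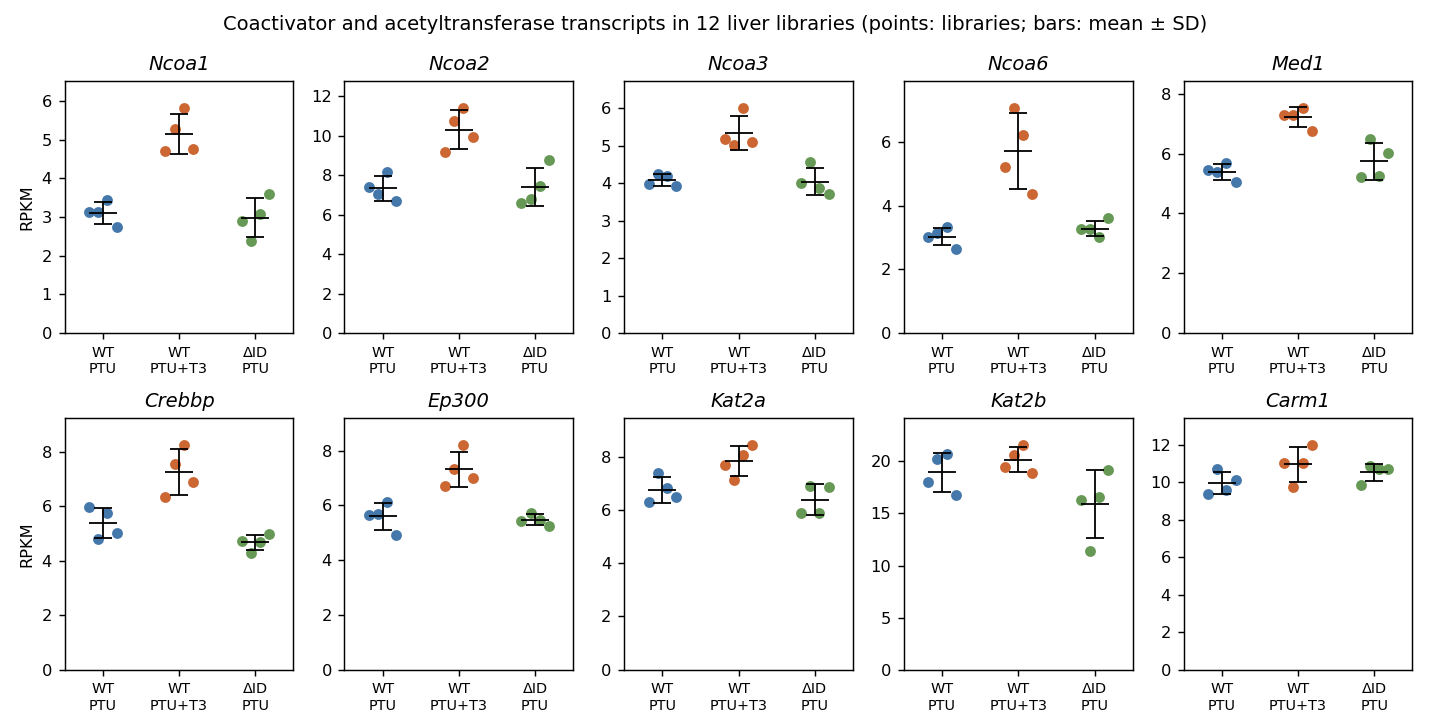
RPKM of the 10 transcripts in each of the 12 libraries (points) with the mean and SD of 4 (black), by group: hypothyroid WT (WT PTU), hyperthyroid WT (WT PTU+T3) and hypothyroid L-NCOR1ΔID (ΔID PTU); each axis starts at 0. Ncoa1 is at 4.70 to 5.82 RPKM in hyperthyroid WT mice and at 2.74 to 3.43 RPKM in hypothyroid WT mice, while the groups overlap for Kat2b and Carm1.

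To determine whether T3 changes the coactivators themselves, hyperthyroid were compared to hypothyroid WT mice. As deposited, 6 of the 10 genes rose (Ncoa1, Ncoa2, Ncoa3, Ncoa6, Med1 and Ep300) and none fell, where 24.5% of all genes tested were called higher and 7.71% lower. After scaling, Ncoa1 and Ncoa6 were the 2 of 10 called higher, against a background of 12.3% higher and 14.0% lower. In all 4 hyperthyroid libraries 7 members were above every hypothyroid library, which held for 35.8% of genes, and 5 members after scaling, which held for 19.9%. The median log2 fold change of the 10 was 0.40 as deposited and 0.16 scaled, beside 0.23 and 0.01 for all genes. No member was called with a log2 fold change above 1 or below -1, against 8.28% and 3.47% of genes as deposited and 5.36% and 4.88% scaled. No member lay below in all libraries, as 10.8% of genes did (21.6% scaled).

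Ncoa6 encodes a scaffold that binds nuclear receptors and carries the KMT2C/KMT2D histone methyltransferases. Its RPKM was 3.03, 3.14, 3.32 and 2.65 in the 4 hypothyroid WT libraries and 5.21, 7.08, 6.24 and 4.36 in the 4 hyperthyroid libraries. Every hyperthyroid library was above every hypothyroid one, at a mean of 5.72 ± 1.19 RPKM. The log2 fold change was 0.87 (95% CI 0.54 to 1.21, limma adjusted p = 0.0015) as deposited and 0.64 (0.30 to 0.98, adjusted p = 0.0085) scaled. On the scaled values the adjusted p ranged from 0.0030 to 0.027 when 1 library was left out, and was below 0.01 in 1 of these 8 fits, that without hyperthyroid replicate 4. A further Ncoa6 transcript in the table differed by 0.84 on the log2 scale.

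Ncoa1 encodes the p160 coactivator SRC-1. It was at 3.12, 3.14, 3.43 and 2.74 RPKM in the hypothyroid WT libraries and at 4.70, 5.28, 5.82 and 4.77 RPKM in the hyperthyroid libraries. The groups did not overlap, also after scaling. Its log2 fold change was 0.71 (0.47 to 0.94, limma adjusted p = 6.8e-04) as deposited and 0.47 (0.27 to 0.68, adjusted p = 0.0031) scaled. With 1 library left out, the scaled change was 0.42 to 0.51 and its adjusted p 0.0056 to 0.011, where the highest came without hyperthyroid replicate 3.

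Ncoa2, the p160 member with the highest level in liver, was at 7.43, 7.06, 8.16 and 6.71 RPKM in hypothyroid WT and 9.17, 10.7, 11.4 and 9.97 RPKM in hyperthyroid WT libraries. These sets did not overlap, and the log2 fold change was 0.48 (0.27 to 0.70, limma adjusted p = 0.0027). After scaling it was 0.25 (0.07 to 0.43) with an adjusted p of 0.035, which is not past the threshold, although the libraries remained apart.

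Ncoa3 was at 3.97, 4.26, 4.20 and 3.93 RPKM in hypothyroid WT and 5.18, 5.02, 6.01 and 5.11 RPKM in hyperthyroid WT libraries. Hyperthyroid replicate 3 was above the other 3, and the groups did not overlap. The log2 fold change was 0.37 (0.18 to 0.57, limma adjusted p = 0.0066) as deposited and 0.14 (-0.02 to 0.29, adjusted p = 0.13) scaled. With 1 library omitted, Ncoa3 passed as deposited in 1 of 8 fits.

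Med1 encodes the Mediator subunit through which nuclear receptors contact the complex. Levels of 5.46, 5.39, 5.70 and 5.04 RPKM in hypothyroid WT and 7.31, 7.30, 7.53 and 6.76 RPKM in hyperthyroid WT libraries gave a log2 fold change of 0.41 (0.25 to 0.58, limma adjusted p = 0.0019). The groups were apart on both scales, with 0.18 (0.02 to 0.34, adjusted p = 0.072) after scaling. The table holds 3 Med1 transcripts, and the most abundant of them was at 7.02 ± 0.413 and 8.37 ± 0.418 RPKM (0.25, limma adjusted p = 0.020), not called.

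Crebbp and Ep300 encode the paired acetyltransferases CBP and p300. Crebbp was at 5.96, 4.80, 5.76 and 5.02 RPKM in hypothyroid WT and 6.34, 7.57, 8.27 and 6.90 RPKM in hyperthyroid WT libraries. Ep300 was at 5.64, 5.70, 6.13 and 4.93 RPKM and at 6.73, 7.34, 8.22 and 7.00 RPKM in the same order. As deposited the groups did not overlap for either gene, and after scaling they overlapped for both. Crebbp had a log2 fold change of 0.42 (0.18 to 0.67, limma adjusted p = 0.011) and Ep300 of 0.38 (0.16 to 0.60, adjusted p = 0.0098), so that these similar changes fell on either side of the threshold. Scaled, they were 0.19 (-0.03 to 0.41, adjusted p = 0.15) and 0.15 (-0.04 to 0.33, adjusted p = 0.18). With any library omitted, Ep300 no longer passed as deposited (adjusted p 0.012 to 0.028).

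The SAGA and ATAC acetyltransferases Kat2a (GCN5) and Kat2b did not pass the test, nor did Carm1. Kat2a was at 6.30 to 7.39 RPKM in hypothyroid and 7.12 to 8.45 RPKM in hyperthyroid WT libraries (log2 fold change 0.21, 0.02 to 0.40, limma adjusted p = 0.063). Kat2b was at 16.8 to 20.7 and 18.9 to 21.6 RPKM (0.09, -0.10 to 0.28, adjusted p = 0.39), and Carm1 at 9.41 to 10.7 and 9.77 to 12.02 RPKM (0.13, -0.05 to 0.32, adjusted p = 0.20). On the scaled values the signs of these 3 turned, to -0.03 (-0.20 to 0.15) for Kat2a, -0.15 (-0.32 to 0.03) for Kat2b and -0.10 (-0.28 to 0.08) for Carm1.

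**Figure D3:**
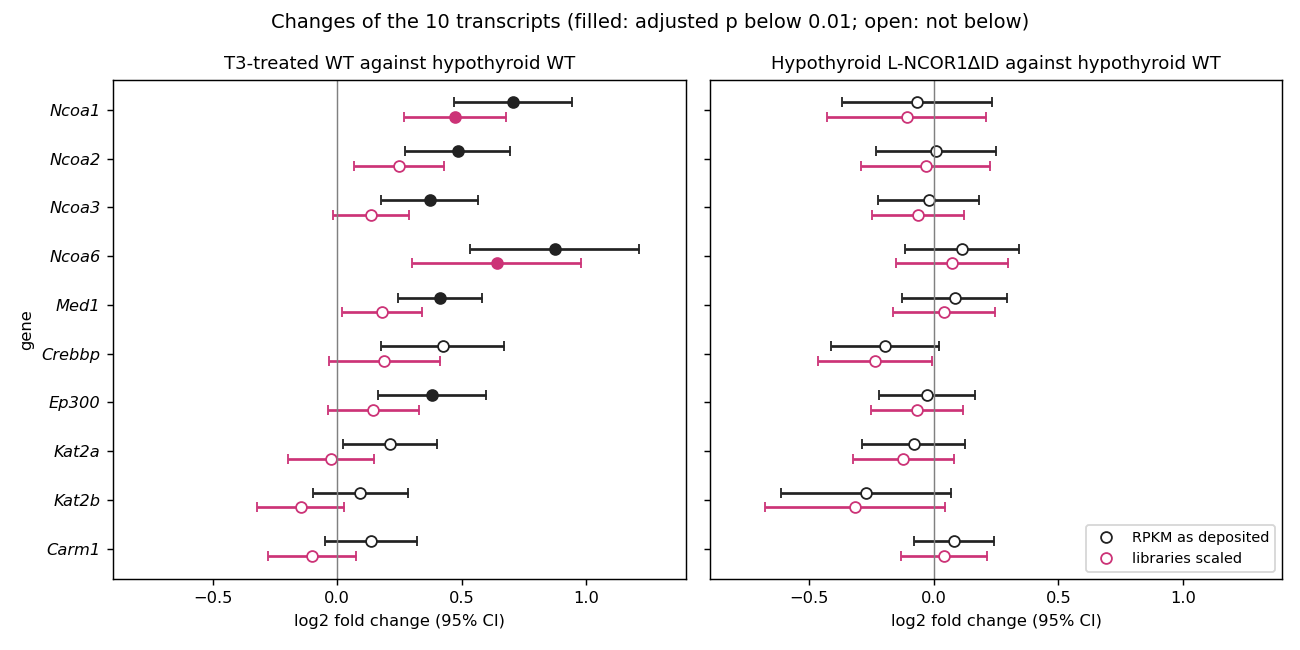
Log2 fold changes with 95% CI for the 10 transcripts in hyperthyroid (left) and L-NCOR1ΔID (right) against hypothyroid WT mice, as deposited (black) and after scaling (pink); filled points have an adjusted p below 0.01. In the left panel 6 black and 2 pink points are filled (Ncoa1 and Ncoa6 for both), and in the right panel none.

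Next, the loss of the contact between NCOR1 and TR was examined in hypothyroid L-NCOR1ΔID mice, against the same 4 hypothyroid WT libraries that served as controls for T3. None of the 10 members was called in limma, where 0.725% of the 13790 genes tested were higher and 0.544% lower. No member had an unadjusted p below 0.05 as deposited, and 1 (Crebbp) had one after scaling. No member was separated from WT in all libraries, which held upwards for 7.78% and downwards for 5.36% of genes. After scaling the background was 0.686% higher, 0.629% lower, 6.5% above and 6.94% below in all libraries, again with no member. A call with a log2 fold change above 1 or below -1 was made for 0.537% and 0.399% of genes (0.527% and 0.441% scaled). The adjusted p ranged from 0.29 to 0.97 and the median log2 fold change was -0.02, beside 0.03 for all genes.

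The 2 genes that rose with T3 on both scales showed no such difference in L-NCOR1ΔID mice. Ncoa1 was at 2.89, 2.38, 3.07 and 3.59 RPKM in the mutant libraries, which enclose all 4 WT values (log2 fold change -0.07, -0.37 to 0.23). Ncoa6 was at 3.26, 3.26, 3.01 and 3.61 RPKM (0.11, -0.12 to 0.34), which overlaps the WT libraries.

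The lowest changes were those of Kat2b and Crebbp. Kat2b was at 16.3, 11.4, 16.6 and 19.2 RPKM in L-NCOR1ΔID and 18.1, 20.2, 20.7 and 16.8 RPKM in WT libraries (log2 fold change -0.27, -0.61 to 0.07, limma adjusted p = 0.34). Replicate 2 of the mutant was below the rest, and without it the change was -0.12. Crebbp was at 4.75, 4.30, 4.70 and 4.97 RPKM in the mutant (-0.20, -0.41 to 0.02, adjusted p = 0.29), with 1 of the 16 pairs of mutant and WT libraries higher in the mutant. For the other members the values were 0.01 (-0.23 to 0.25) for Ncoa2, -0.02 (-0.22 to 0.18) for Ncoa3, 0.08 (-0.13 to 0.30) for Med1, -0.03 (-0.22 to 0.17) for Ep300, -0.08 (-0.29 to 0.13) for Kat2a and 0.08 (-0.08 to 0.24) for Carm1. The T3 changes of Ncoa2, Ncoa3, Ep300 and Med1 as deposited (0.48, 0.37, 0.38 and 0.41) were above the upper ends of these intervals, and the WT libraries were common to both comparisons. After scaling, the upper ends were 0.23 for Ncoa2, 0.12 for Ncoa3, 0.12 for Ep300 and 0.25 for Med1, beside T3 changes of 0.25, 0.14, 0.15 and 0.18. Since the T3 changes have errors of their own, these intervals do not test whether the effects differ. In the direct comparison below, limma's adjusted p as deposited was 0.0102 for Ncoa2, 0.016 for Ncoa3 and 0.025 for Med1, none of them called. For Ep300 it was 0.0071.

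To ask whether the 2 conditions differ from each other, hyperthyroid WT were compared directly to hypothyroid L-NCOR1ΔID mice, which differ in genotype and in T3. As deposited 4 of 10 members were higher in hyperthyroid WT mice and none lower, against 15.5% and 5.70% of 14017 genes. These were Ncoa1 (log2 difference 0.78, 0.46 to 1.09, limma adjusted p = 0.0027), Ncoa6 (0.76, 0.42 to 1.10, adjusted p = 0.0046), Crebbp (0.62, 0.38 to 0.86, adjusted p = 0.0021) and Ep300 (0.41, 0.21 to 0.61, adjusted p = 0.0071). After scaling 0 of 10 passed limma's threshold, where 7.51% of genes were higher and 9.26% lower, although 6 members had an unadjusted p below 0.05. With 1 library left out, 2 to 4 members were called as deposited (2 without hyperthyroid replicate 2 or 3 or mutant replicate 1, 2 or 3). Crebbp and Ncoa1 passed in all 8 of these fits, Ncoa6 in 3 (adjusted p 0.0024 to 0.017) and Ep300 in none (0.011 to 0.023). The closest after scaling were Crebbp (0.43, 0.21 to 0.65, adjusted p = 0.011), Ncoa1 (0.58, 0.27 to 0.90, adjusted p = 0.013) and Ncoa6 (0.57, 0.22 to 0.91, adjusted p = 0.021). All hyperthyroid libraries were above all mutant libraries for 8 members as deposited and 5 scaled (Ncoa1, Ncoa3, Ncoa6, Crebbp and Ep300), which held for 28.7% and 16.3% of genes (below in all, 9.57% and 17.2%). With a log2 difference above 1 or below -1, 5.52% and 3.00% of genes were called (3.84% and 4.13% scaled) and no member.

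Because ratios within a library are free of its scaling, the share of each paralogue in its family was computed. Ncoa1 made up 21.4 ± 0.584% of the summed p160 RPKM in hypothyroid WT, 24.7 ± 0.494% in hyperthyroid WT and 20.6 ± 2.24% in L-NCOR1ΔID mice. Its share was 20.5 to 21.7% in the hypothyroid and 24.0 to 25.1% in the hyperthyroid WT libraries, 3.36 percentage points apart (exact two-sided permutation p = 0.029, the smallest that 4 against 4 allows, adjusted p = 0.21 over 15 tests). The share of Ncoa2 was 50.4 ± 1.26%, 49.6 ± 1.27% and 51.2 ± 2.52%, and that of Ncoa3 was 28.2 ± 1.44%, 25.7 ± 1.36% and 28.2 ± 4.24%. Between the WT groups Ncoa3 differed by -2.53 points (exact permutation p = 0.057, adjusted p = 0.21). Ep300 took 51.0 ± 2.50%, 50.2 ± 0.954% and 54.0 ± 2.39% of the sum of Crebbp and Ep300. Kat2b took 73.7 ± 1.34%, 72.0 ± 2.22% and 70.8 ± 5.69% of the sum of Kat2a and Kat2b. None of the 15 comparisons of shares passed the adjustment, and 2 had an unadjusted exact permutation p below 0.05, those of Ncoa1 in hyperthyroid WT against either other group.

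**Figure D4:**
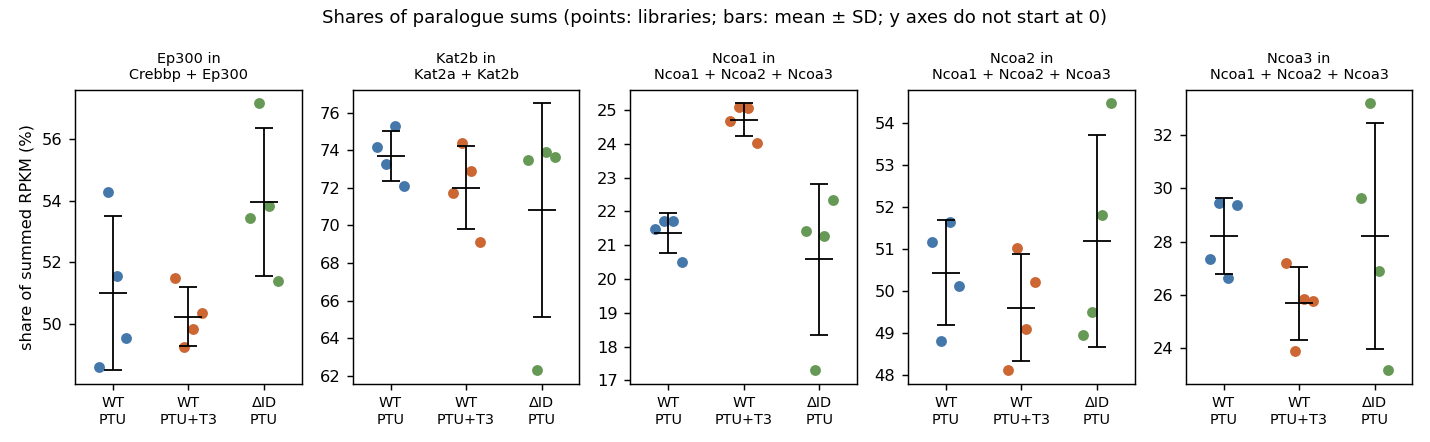
Share in percent of each paralogue in the summed RPKM of its family, per library (points) with mean and SD of 4, in hypothyroid WT, hyperthyroid WT and L-NCOR1ΔID mice; the axes do not start at 0. The share of Ncoa1 is 24.0 to 25.1% in hyperthyroid WT mice and at most 22.3% in the other 8 libraries, while Kat2b of mutant replicate 2 is at 62.3%.

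The partners of these coactivators were described by 9 lists of 119 genes in all, of which 117 were in the table. Between hyperthyroid and hypothyroid WT mice 27 of the 114 tested were higher and 4 lower, beside 24.5% and 7.71% of all genes. After scaling 7 were higher and 15 lower, beside 12.3% and 14.0%. Leaving out 1 library gave 15 to 21 higher and 1 to 3 lower as deposited, and 15 to 17 higher without hypothyroid replicate 1, 2 or 4 or hyperthyroid replicate 3 or 4.

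Among 31 Mediator subunits 10 were higher and 1 lower (3 and 4 after scaling). Med24, Med14 and Med12 had the smallest adjusted p. Med24 rose from 3.90 ± 0.560 to 7.22 ± 0.465 RPKM (0.88 on the log2 scale, limma adjusted p = 3.0e-04, 0.64 scaled) and Med12, part of the kinase module, from 3.36 ± 0.170 to 5.17 ± 0.513 RPKM (0.60, limma adjusted p = 8.9e-04, 0.37 scaled), and both remained called when scaled. Med14, the backbone of the complex, was 0.57 higher (0.34 scaled, adjusted p = 0.014).

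Of 23 SAGA and ATAC subunits, the complexes that hold Kat2a or Kat2b, 3 were higher and none lower (1 and 5 scaled). Taf12 rose from 8.42 ± 0.281 to 12.9 ± 1.85 RPKM (0.60 on the log2 scale, limma adjusted p = 0.0014) and was called on both scales, whereas Taf5l (0.51) and Zzz3 (0.35) were not called when scaled. Of 10 other lysine acetyltransferases 2 were higher (1 scaled). Clock, a core circadian activator with acetyltransferase activity, rose from 3.30 ± 0.436 to 8.99 ± 1.86 RPKM (1.40, limma adjusted p = 1.7e-04, 1.17 scaled). Kat5 (TIP60) had a log2 fold change of 0.44, and 0.21 scaled with an adjusted p of 0.035.

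Of the 8 genes of the KMT2C/KMT2D complex, with which NCOA6 associates, Paxip1 was higher (0.41, limma adjusted p = 0.0074, 0.17 scaled) and Dpy30 lower. Dpy30 fell from 14.3 ± 0.717 to 11.4 ± 0.408 RPKM (-0.33, limma adjusted p = 0.0032, -0.56 scaled) and was the one call of the list after scaling. None of the 7 protein arginine methyltransferases tested, relatives of Carm1, passed limma's test on either scale, with a median of 0.34 as deposited and 0.11 scaled.

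Of 5 tested binding partners of CBP and p300, Creb1 (0.54, limma adjusted p = 0.0027) and Crtc2 (0.46, adjusted p = 0.0083), which bring CBP to cAMP-responsive genes, were higher as deposited and neither was when scaled. Of 10 other coactivators of nuclear receptors 3 were higher and 1 lower, and after scaling none and 4. Ccar1 (0.43) and Pprc1 (0.96) rose, and Calcoco1 fell from 12.5 ± 1.75 to 8.76 ± 1.18 RPKM (-0.51, limma adjusted p = 0.0096, -0.75 scaled). Of the 3 BET proteins, readers of acetyl-lysine, Brd2 rose from 22.7 ± 1.54 to 32.6 ± 5.12 RPKM (0.51, limma adjusted p = 0.0052), not called when scaled (0.27).

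The SWI/SNF remodelling complex, which is recruited to acetylated chromatin, had 5 of 17 subunits higher and 1 lower (2 and 1 scaled). Its ATPases moved in opposite directions as deposited. Smarca2 (BRM) fell from 32.8 ± 2.10 to 18.9 ± 0.983 RPKM (-0.79 on the log2 scale, limma adjusted p = 4.5e-05, -1.03 scaled). Smarca4 (BRG1) had a log2 fold change of 0.36 (limma adjusted p = 0.0019), and of 0.13 after scaling (adjusted p = 0.11). Smarcd1 rose from 1.46 ± 0.124 to 3.25 ± 0.469 RPKM (1.09, limma adjusted p = 2.1e-04, 0.86 scaled) and Dpf2 from 5.74 ± 0.404 to 8.75 ± 0.429 RPKM (0.60, limma adjusted p = 3.5e-04, 0.36 scaled).

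**Figure D5:**
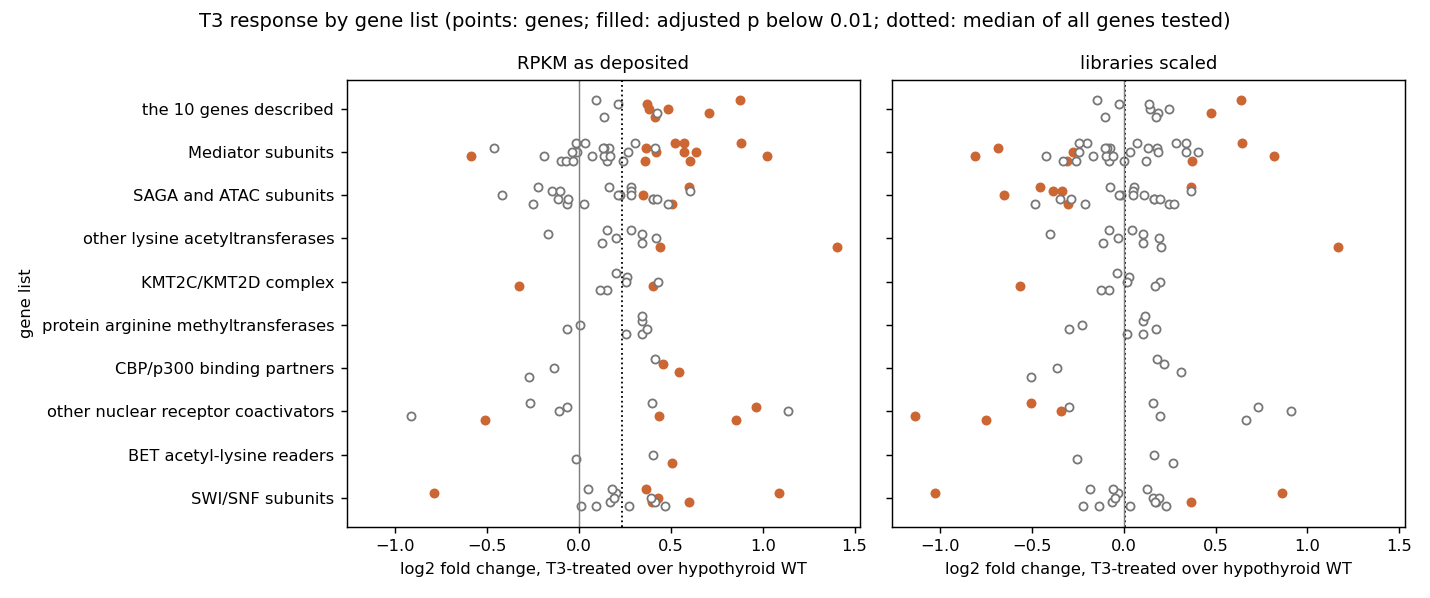
Log2 fold changes in hyperthyroid against hypothyroid WT mice of the 10 genes described and of 9 lists of partner genes, as deposited (left) and after scaling (right). Each point is a gene, filled at an adjusted p below 0.01, and the dotted line is the median of all genes (0.23 and 0.01). Clock at 1.40, Smarcd1 at 1.09 and Smarca2 at -0.79 are filled in both panels.

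In L-NCOR1ΔID mice 0 of 115 partner genes tested were called in either direction by limma on both scales, with 12 at an unadjusted p below 0.05 as deposited and 14 scaled, beside 2831 of 13790 and 2862 of 13839 among all genes. In the direct comparison of hyperthyroid WT with L-NCOR1ΔID mice 21 of 114 were higher and 3 lower, beside 15.5% and 5.70% of all genes. After scaling they were 7 and 8, beside 7.51% and 9.26%. As deposited, 7 to 17 were higher and 1 to 4 lower with 1 library left out (7 to 12 higher without any 1 hyperthyroid library or mutant replicate 2 or 3). Among those called on both scales were Med12l (0.172 ± 0.0583 RPKM in the mutant and 0.917 ± 0.155 in hyperthyroid WT mice, log2 difference 1.91, limma adjusted p = 2.1e-04), Pprc1 (1.15, adjusted p = 6.5e-04), Dpf2 (0.59, adjusted p = 6.4e-04) and Smarca2 (-0.75, adjusted p = 0.0012). The mutant level of Med12l is near the filter of 0.1 RPKM, and hypothyroid WT mice had 0.405 ± 0.104 RPKM.

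Finally, the gene with the most similar pattern to each member over the 12 libraries was identified after scaling, among 10663 genes with a mean of at least 1 RPKM. The points share libraries and groups, and the correlations are descriptions. Ncoa1 was closest to Gbf1 (Pearson r = 0.98), Ncoa6 to Tapt1 (0.97), Ep300 to Cpsf7 (0.97), Kat2b to Vps37a (0.96), Ncoa2 to Elavl1 (0.96) and Crebbp to Med13l (0.94), itself a Mediator subunit. Med1 was closest to Smarce1 (0.91), Ncoa3 to Slc25a3 (0.91), Carm1 to Tecr (0.89) and Kat2a to Mrpl3 (0.84). Among the 45 pairs of members r ranged from -0.70 to 0.92 (median 0.41), with Ncoa1 and Ncoa2 the closest pair. Kat2a and Carm1 had no member closer than each other (0.37).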

How the data were processed

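Poly(A) RNA from 12 mouse livers was sequenced from NEBNext libraries, each with runs on more than 1 instrument model. According to their notes and methods, the authors aligned reads to mm9 with STAR and counted RefSeq transcripts with HOMER. The authors deposited RPKM per transcript. DESeq2 is also named in their notes and its results were not used. Tool versions were not given in the sources used here. A second deposited file holds the start and end of 37200 acetylated regions that the authors called with HOMER. The remaining 44 samples of the series, chromatin immunoprecipitations, were not analysed here as single libraries.

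The table holds 31370 transcripts and 0 unused columns of samples. The first listed transcript was kept per gene (23813 genes), and 1 transcript without a gene name was dropped. Library depth was estimated from the steps between low RPKM values, with GENCODE M1 lengths. limma 3.58.1 (R 4.3.3) with a variance trend was fitted to log2(RPKM + 0.1) of the 2 groups compared, so that fold changes of low genes are understated. A transcript at 0.1 RPKM has 2.12 to 4.26 reads for each kilobase. Genes tested had at least 0.1 RPKM in at least 4 of 8 libraries. The fit was also run on simulated data, with independent noise and changes of 1 or 2 log2 units in a small set of genes. Smaller changes, as in the members, and shifts of a whole library were not simulated. Shares of paralogues were compared by the exact permutation test (scipy 1.17.1). For scaling, each library was divided by the median, over 14148 genes above 0 in all libraries, of its ratio to their geometric mean (factors 0.926 to 1.20). The deposited table gives no start sites, so GENCODE M1 starts were used. 95% CI are those of limma. The study's methods call the 4 RNA samples of a group biological replicates, and p-values measure the spread between them.

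The members and lists were chosen with earlier results of these data known. Genes named were the 10 members, for each list and comparison up to 3 genes with the smallest adjusted p below 0.01, the closest gene in pattern per member, and Thrsp, Dio1 and Ncor1. One gene that this rule selects is not reported here. Smarca4 (hyperthyroid against hypothyroid WT) is named beyond this rule, after its value was seen, as the paralogue of Smarca2. Alternatives covered the pseudocount, filter, scaling, transcript, threshold, replicate block, variance trend, all libraries in 1 fit and each library left out.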

Additional observations from a re-analysis of the deposited data

Results flagged for a closer look

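Of 45 sets of 4 libraries examined (10 transcript levels and 5 shares in 3 groups), 2 held a library far from the other 3 by Dixon's criterion, which chance meets in about 1 set in 20. Ncoa3 was at 6.01 RPKM in hyperthyroid WT replicate 3 and at 5.02 to 5.18 RPKM in the others. This is the library with the lowest estimated depth (21.2 M reads) and the largest scale factor (1.20). The share of Kat2b in the sum of Kat2a and Kat2b was 62.3% in L-NCOR1ΔID replicate 2 and 73.5 to 73.9% in the others, and without that library the difference from hypothyroid WT was -0.03 percentage points in place of -2.87.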

How the results depend on the processing

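Scaling the libraries was the choice that mattered most. With it, 2 members in place of 6 were higher in hyperthyroid against hypothyroid WT mice (2 also with the replicate block), and 0 in place of 4 in hyperthyroid WT against L-NCOR1ΔID mice (0 also with the block). Partner genes went from 27 to 7 higher and from 4 to 15 lower in the first comparison and from 21 to 7 and 3 to 8 in the second. Signs turned for Kat2a (-0.025), Kat2b (-0.15) and Carm1 (-0.10) between WT groups, for Ncoa2 in L-NCOR1ΔID mice (-0.033) and for Carm1 in the direct comparison (-0.14). The block cannot change these scaled values, since every replicate number occurs in each group. On scaled values with the block, 1183 of 13913 genes were higher between WT groups and 529 of 13958 in the direct comparison. In the direct comparison 7 members were called with all 12 libraries in 1 fit, 8 at an adjusted p below 0.05 and 0 with the replicate block. Of the 14017 genes tested, 3013, 3995 and 1152 were called higher at these settings, and 1087, 1412 and 490 lower.

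With 1 library left out, members called higher numbered 4 to 5 between WT groups and 2 to 4 in the direct comparison, and 0 to 2 and 0 to 1 once scaled. The 2 came without hyperthyroid WT replicates 2 and 3 and without L-NCOR1ΔID replicates 1, 2 and 3. Among all genes tested, 2438 to 2978 were called higher between WT groups and 1182 to 1905 in the direct comparison. Once scaled, these were 1180 to 1358 and 643 to 1035. Partner genes numbered 15 to 21 higher and 1 to 3 lower, and 7 to 17 and 1 to 4 in the direct comparison. In L-NCOR1ΔID mice the members called stayed at 0, and log2 changes spanned 0 for Ep300 (-0.086 to 0.017), Ncoa1 (-0.16 to 0.031), Ncoa2 (-0.073 to 0.061) and Ncoa3 (-0.080 to 0.016). Scaled, they spanned 0 for Ncoa1 (-0.21 to 0.0026), Ncoa2 (-0.12 to 0.030) and Med1 (-0.0052 to 0.10), as did Kat2a between WT groups (-0.063 to 0.020). Share differences spanned 0 for Ep300 between WT groups (-1.56 to 0.325 points), for Ncoa1 (-1.36 to 0.322), Ncoa2 (-0.345 to 1.496) and Ncoa3 (-1.64 to 1.70) in L-NCOR1ΔID mice, and for Kat2b in the direct comparison (-1.65 to 2.21).

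Replicate numbers are shared between groups, but nothing in the labels pairs the mice. Deviations of same-numbered libraries correlated at -0.08 to 0.08 between WT groups, -0.21 to 0.27 for L-NCOR1ΔID and WT, and -0.05 to 0.04 for the direct comparison. Those of differently numbered libraries correlated at -0.097 to 0.066, -0.31 to 0.32 and -0.084 to 0.081 in the same order. The numbers were therefore not taken as pairs. Every replicate number occurs in each group, so the replicate block cannot change a log2 fold change, only its error. With the block 4 members were higher between WT groups, beside 2718 of 13941 genes. Ep300 (adjusted p = 0.011) and Ncoa3 (adjusted p = 0.016) were no longer past limma's threshold.

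The median number of regions near the members was 4.5 within 50 kb and 17 within 200 kb. The alternative transcript was not run for the regions, since the table gives no start sites. The 4 replicates a group and 21.2 to 42.6 M reads limit what can be called. The cause of these shifts was not tested.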
